A study of Mus musculus with 6 samples.

Results

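Of the 14236 circular RNAs (circRNAs) probed in mouse cardiac apex, 21 read above the array's negative-control probes in every heart and lower in all 3 db/db hearts than in all 3 C57BL/6 hearts. They were chosen by that pattern. A level here is the log2 processed intensity of a circRNA's probe minus the 75th percentile of the same array over its non-control probes. The 21 lay above every negative-control probe on all 6 arrays, had their highest db/db level below their lowest C57BL/6 level, and had a mean difference of at least 0.3, with the 100 brightest circRNAs of C57BL/6 left out. The lower level in db/db is therefore a condition of the choice, and its size is given as a description without a test.

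The controls were C57BL/6 mice and the other group db/db mice, both 21 weeks old, with 3 arrays per group, each taken as 1 animal. Mice of the db/db genotype lack working leptin receptors and grow obese and diabetic with age, and cardiac fibrosis is the setting that the study's title names. The strain on which the db/db allele was kept, the sex of the mice and whether the controls were littermates are not given in the labels. RNA came from the whole apex, so fewer cells of a type and less circRNA per cell cannot be told apart.

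CircRNAs form when the spliceosome joins the end of an exon back to the start of the same or an earlier exon, which closes the RNA into a ring without free ends. Rings resist exonucleases such as RNase R, which was used here to digest linear RNA before labelling with random primers. In heart muscle, long genes of the contractile and calcium-handling machinery are well-known sources of circRNAs, and some circRNAs elsewhere bind microRNAs or proteins. The probe IDs of this design are not paired with circRNA names, host genes, coordinates or sequences in the files used here. The 21 are therefore called by their rank in size of difference, from rank 1 for the largest drop, and only 2 are given by ID.

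Arrays that share a scan were taken as 1 slide. C57BL/6 replicates 1 and 2 were on slide 1, and C57BL/6 replicate 3 was on slide 2 with all 3 db/db arrays, so group and slide were partly confounded. The 75th percentile of processed intensity ran from 399 to 715 on the C57BL/6 arrays and from 296 to 494 on the db/db arrays. The 23 brighter of the probes printed 10 times per array had a median SD between their spots of 0.023 to 0.030 (log2), whereas each circRNA had a single spot. Of 40 cell type markers, only Hspb7, a small heat shock protein of heart muscle, had a probe, and it lay above every negative control on all 6 arrays. Its level was 1.90, 2.13 and 1.78 in the controls and 1.89, 1.59 and 1.57 in db/db, in order of replicate, so the groups overlapped. Its mean was lower in db/db (log2 difference -0.26), the direction required of the 21. Linear RNA had been digested before labelling, so the level of this mRNA probe need not follow heart muscle content. The part of heart muscle content in the drop of the 21 was not tested.

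After 15 circRNAs with an outlier spot were dropped, 14221 had a level on every array. The 3 db/db arrays lay below the 3 C57BL/6 arrays for 1025 of them (7.21%), and for 774 (5.44%) the difference was also at least 0.3. Of these 774, 710 were below a negative control on at least 1 C57BL/6 array. Another 43 cleared the controls in all C57BL/6 hearts but not in every db/db heart, 9 of them because of db/db replicate 2 alone, and the 21 are what remained. None of the 100 brightest circRNAs had the db/db arrays wholly below the C57BL/6 arrays.

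The bar itself was uneven between the groups. It was set on every array by 1 probe, MM9NEGATIVE016, at a level of 0.46, 0.07 and 0.47 on the C57BL/6 arrays and of 0.53, 1.04 and 0.76 on the db/db arrays, in order of replicate. A circRNA that was lower in db/db thus had to clear a higher bar there. The smallest margin over the bar fell on db/db replicate 2 for 18 of the 21 and on db/db replicate 3 for 3. The narrowest margins inside were 0.09, 0.10 and 0.13, and the nearest circRNAs outside fell short by 0.001, 0.07 and 0.14.

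Among the 1932 circRNAs above the controls, lower levels without overlap were the rarer direction, with 38 (1.97%) lower and 271 (14%) higher in db/db. These 1932 had cleared the bar that was higher on the db/db arrays, which keeps out circRNAs that are lower there. Of the 38, 17 had a difference smaller than 0.3. Over the 1832 circRNAs that remained without the 100 brightest, the 21 made up 1.15%. The median difference over those 1832 was 0.07, against -0.55 over the 21. The limma fit over all 14218 circRNAs that passed the filter called 0 (0.0%) at an adjusted p under 0.05, the 21 included. At an unadjusted p under 0.05 it gave 1495, of which 863 (6.07% of those tested) were lower in db/db and 632 higher. That balance turned with some processing, to 422 lower and 729 higher with normexp and to 744 lower and 1066 higher with median centring. It kept its direction with quantile normalization (964 lower, 906 higher) and in the authors' deposited table (930 lower, 893 higher). The same was true with the percentile over detected probes (878 lower, 627 higher) and with outlier spots kept (858 lower, 630 higher). Among the 1932 circRNAs above the controls the balance was 20 lower and 130 higher. A plain per-probe test on quantile-normalized values gave 0 after adjustment and 1547 before it (656 lower, 891 higher).

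**Figure D1:**
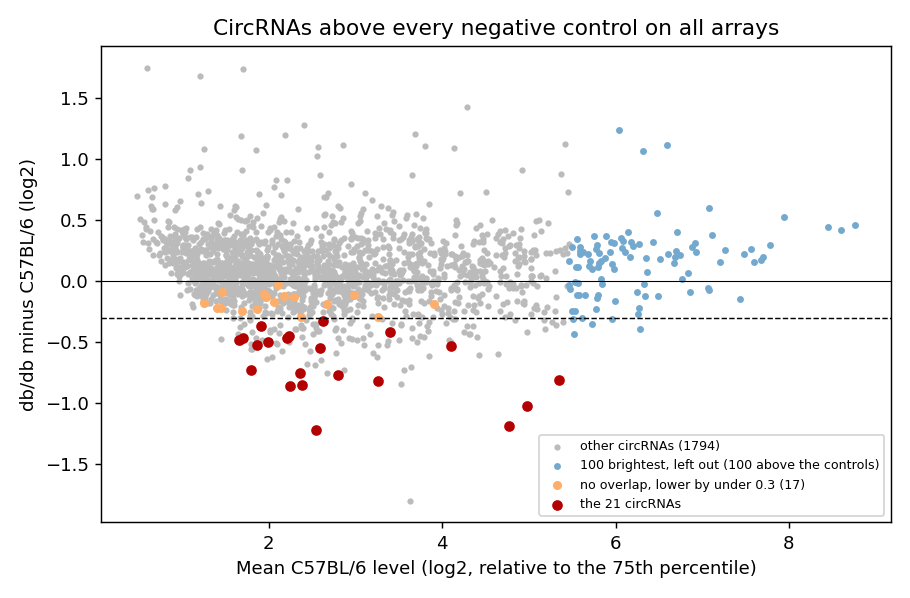
Each point is a circRNA above every negative control on all 6 arrays, with its mean C57BL/6 level on the x axis (log2, relative to the 75th percentile) and its db/db minus C57BL/6 difference on the y axis (log2). The 21 circRNAs (red) lie below the dashed line at -0.3 and span C57BL/6 levels from 1.66 to 5.35, the 17 non-overlapping circRNAs with smaller drops (orange) lie above it, and grey points below the line had overlapping groups.

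The thresholds cut through a continuous range. The smallest drops inside were -0.33 and -0.37, and the largest just outside were -0.298 and -0.297. A further 112 circRNAs above the controls were lower by at least 0.3 with overlapping groups. The largest drop of all those above the controls was among them. That circRNA stood at 4.24, 3.92 and 2.75 in the controls and at 2.75, 1.31 and 1.45 in db/db, in order of replicate, a difference of -1.80. Its C57BL/6 replicate 3 (2.751) lay just below db/db replicate 1 (2.752), which kept it out.

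Within the 21, the drop ran from 1.25-fold to 2.34-fold with a median of 1.46-fold. It was at least 2-fold for 3 circRNAs, 1.5-fold to 2-fold for 7 and smaller for 11. Their mean C57BL/6 levels had a median of 2.38, and in order of brightness they held places 111 to 1455 among all circRNAs. On every C57BL/6 array each of the 21 was at or above the 88.2 percentile of circRNAs. The average percentile of a circRNA was lower in db/db by 0.98 to 6.16 points, with a median of 2.82.

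ASCRP4009559 had the largest drop. Its level was 2.91, 2.86 and 1.86 in the controls and 1.71, 1.14 and 1.098 in db/db, in order of replicate. The db/db mean was 2.34-fold below the C57BL/6 mean (log2 difference -1.23 ± 0.40, SE, n = 3 per group). The C57BL/6 arrays were far from uniform, since replicate 3 lay 1.03 below the mean of the others and only 0.14 above the highest db/db array. In processed intensity before scaling, C57BL/6 replicate 3 (1445) was below db/db replicate 1 (1622), so this gap rests on the scaling of the arrays. The same order of these 2 arrays before scaling was seen at ranks 6, 9, 11, 14, 15, 18, 19, 20 and 21.

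The circRNA at rank 2 combined a large drop with a wide gap. It read 4.89, 5.04 and 4.39 on the C57BL/6 arrays and 3.82, 3.51 and 3.43 on the db/db arrays, in order of replicate. The db/db mean was 2.28-fold lower (-1.19 ± 0.23, SE, n = 3 per group), and the gap between the groups, 0.58, was the widest of the 21. The circRNA at rank 3 read 5.09, 5.22 and 4.65 in C57BL/6 and 4.28, 3.96 and 3.65 in db/db, a 2.04-fold drop with a gap of 0.37. Both were bright, at places 188 and 150 among all circRNAs of C57BL/6 heart, and in both C57BL/6 replicate 3 was the lowest control and db/db replicate 1 the highest db/db array.

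**Figure D2:**
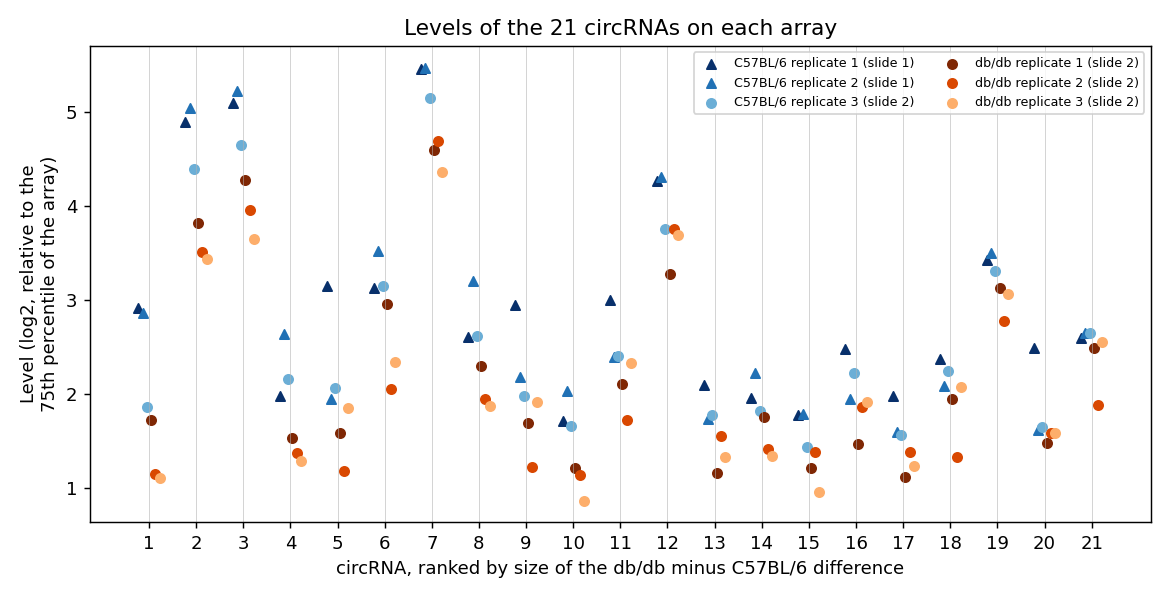
Levels of the 21 circRNAs on each array (y axis, log2 relative to the 75th percentile), ordered on the x axis by size of the difference, with C57BL/6 in blue, db/db in orange, triangles for slide 1 and circles for slide 2. Blue points lie above orange points throughout, as the choice required, and the gap between the groups ranges from 0.58 at rank 2 to 0.004 at rank 12.

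ASCRP4000673 was the brightest of the 21, with a mean C57BL/6 level of 5.35, next to the 5.46 of the dimmest circRNA among the 100 left out. It read 5.45, 5.47 and 5.14 in C57BL/6 and 4.59, 4.69 and 4.36 in db/db, and its processed intensity ran from 14093 to 31298 in C57BL/6 and from 7643 to 11928 in db/db. The drop was 1.75-fold (-0.81 ± 0.15, SE, n = 3 per group). Replicates lay close together in both groups (SD 0.18 and 0.17), and the gap between the groups was 0.45. Here the groups were apart in intensity before scaling as well. Intensity before scaling also holds the brightness of each array. The 75th percentile was 399 to 715 in C57BL/6 and 296 to 494 in db/db.

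The other circRNAs with a drop of 1.5-fold to 2-fold were dimmer. At rank 4 the levels were 1.97, 2.63 and 2.15 in C57BL/6 against 1.52, 1.37 and 1.29 in db/db. At rank 10 they were 1.71, 2.03 and 1.66 against 1.21, 1.13 and 0.86. Both had a gap near that of ASCRP4000673 (0.45 in each), but the circRNA at rank 10 cleared the negative-control bar on db/db replicate 2 by only 0.09. At rank 8 the levels were 2.60, 3.19 and 2.62 against 2.29, 1.95 and 1.87, with a gap of 0.31. The circRNAs at ranks 4, 8 and 10 shared C57BL/6 replicate 2 as the highest array and db/db replicate 3 as the lowest. The same held at ranks 2, 3, 7, 14 and 15.

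The circRNAs at ranks 5, 6 and 9 had wider spread within a group. At rank 5 the C57BL/6 levels were 3.15, 1.95 and 2.06, with the largest C57BL/6 SD of the 21 (0.66), against 1.58, 1.17 and 1.84 in db/db. At rank 9 they were 2.94, 2.17 and 1.97 against 1.69, 1.22 and 1.92, which left a gap of 0.06. At rank 6 the spread was in db/db, at 2.95, 2.05 and 2.33 (SD 0.46), against 3.13, 3.52 and 3.14. For ranks 5 and 9 a large part of the drop came from C57BL/6 replicate 1: without it the log2 difference fell from -0.85 to -0.47 at rank 5 and from -0.75 to -0.47 at rank 9.

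For the 11 circRNAs at ranks 11 to 21 the drop was 1.25-fold to 1.46-fold and the gap 0.004 to 0.19. The widest gaps were at rank 17 (0.19), rank 13 (0.18) and rank 19 (0.17). At rank 19 the levels were 3.42, 3.49 and 3.30 in C57BL/6 against 3.13, 2.78 and 3.06 in db/db, with an SD of 0.10 among the controls. At rank 12, a brighter circRNA, C57BL/6 replicate 3 (3.752) and db/db replicate 2 (3.748) were separated by 0.004, less than the spread of repeated spots. At rank 20 the levels were 2.49, 1.61 and 1.65 against 1.48, 1.58 and 1.58. There the difference of -0.37 became -0.08 without C57BL/6 replicate 1. At rank 21 the drop came from db/db replicate 2 (1.88), since db/db replicates 1 and 3 (2.48 and 2.55) lay close to the C57BL/6 arrays (2.59, 2.65 and 2.65), and the difference of -0.33 became -0.11 without that array.

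Over all 21, the gap between groups was under 0.1 for 9 circRNAs and above 0.3 for 6. The SD within C57BL/6 had a median of 0.27, beside 0.20 over the 1832 circRNAs above the controls, and within db/db it was 0.22 beside 0.21.

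The replicates of a group did not deviate in the same way for all 21. C57BL/6 replicate 1 exceeded both other controls by at least 0.3 for 6 circRNAs (ranks 5, 9, 11, 13, 17 and 20), a pattern that 20.4% of the 1832 showed. C57BL/6 replicate 3 was at least 0.3 below both other controls for another 6 (ranks 1, 2, 3, 7, 12 and 15), a pattern found in 1.9% of the 1832. In db/db, replicate 2 was at least 0.3 below the others for 5 (ranks 5, 9, 11, 18 and 21), against 18.8%. The choice drew on these values. It required C57BL/6 replicate 2, the lowest control for 70.0% of the 1832, to lie above every db/db array. These counts are thus a description, and the parts of the choice and of slide in them were not tested.

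Some of the 21 had nearly the same profile after the group means were removed. The deviations of ranks 7 and 15 correlated at 0.993 over the 6 arrays, those of ranks 9 and 11 at 0.979, of ranks 1 and 2 at 0.97, and of rank 5 with ranks 11 and 9 at 0.965 and 0.961. Such likeness was common on these arrays. Of the 210 pairs among the 21, 14 (6.67%) correlated above 0.9, beside 7.65% of all pairs of the 1832, and the median correlation was 0.25 beside 0.21. All pairs share the same 6 arrays and their scaling, so these coefficients describe the arrays only.

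C57BL/6 replicate 3, the control on the db/db slide, lay below the mean of the other controls for 18 of the 21, with a median of 0.28 over all 21. Over the 1832 it did so for 28.7%, and its median there was above the other controls (-0.10 on the same scale). Within slide 2, where it is the only control, C57BL/6 replicate 3 exceeded the mean of the db/db arrays by 0.10 to 0.81, with a median of 0.46, while the median difference over all arrays was -0.55 (db/db minus C57BL/6). The drop within slide 2 was largest at rank 2 (0.81), rank 4 (0.76), rank 6 (0.70) and rank 3 (0.69), and for ASCRP4009559 it was 0.54 in place of 1.23. The rule used all these values. It required this array to exceed every db/db array, and it kept only circRNAs with C57BL/6 replicate 2 above every db/db array as well. The position of C57BL/6 replicate 3 is thus a description, and the part of slide in the drop was not tested.

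The choice can be repeated on 5 arrays and read on the array it did not use. Without C57BL/6 replicate 1 the rule took 21 circRNAs, and that array lay above all 3 db/db arrays for all 21, beside 29.2% of the circRNAs above the controls. Without C57BL/6 replicate 3 it took 32, of which 22 (68.8%) had that array above the db/db arrays, beside 14.4%. Without C57BL/6 replicate 2 it took 113, and only 23 (20.4%) had that array above the db/db arrays, beside 5.84%. The left-out db/db array lay below all controls for 23 of 39 (59.0%, beside 12%) with replicate 1, for 25 of 53 (47.2%, beside 34.7%) with replicate 2 and for 25 of 60 (41.7%, beside 8.34%) with replicate 3. In each case the share was above that of the circRNAs at large, but the arrays it was read against had been used in the choice, which favours such a position. Each set also held 19 to 21 of the original 21, for which the left-out array lay beyond the other group by definition. The shares are therefore no test of the choice. The 6 readings also share arrays. C57BL/6 replicate 2 was the array that limited the list most, being the lowest control for 70.0% of the 1832.

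**Figure D3:**
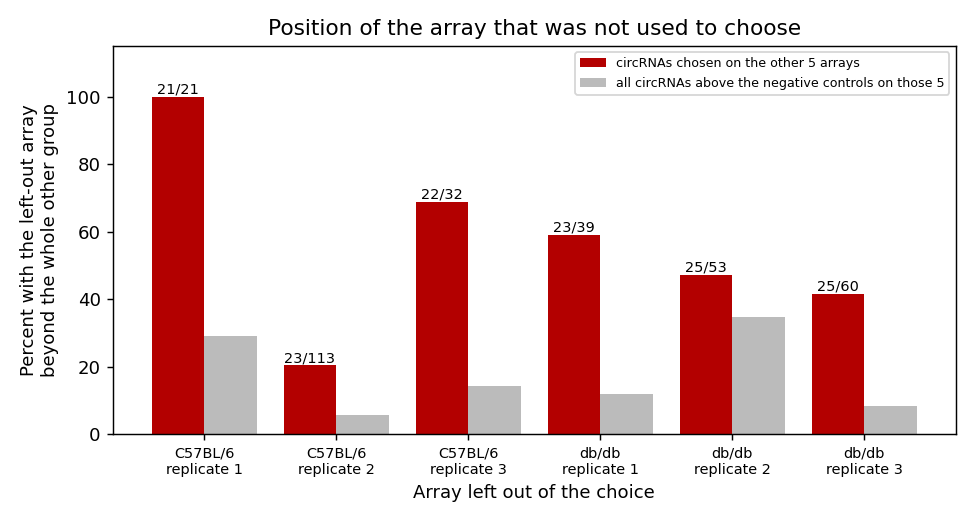
For each array left out in turn (x axis), red bars give the percent of circRNAs chosen by the same rule on the other 5 arrays whose left-out level lay beyond the whole other group (above all db/db arrays for a C57BL/6 array, below all C57BL/6 arrays for a db/db array), with counts above the bars, and grey bars give that percent for all circRNAs above the negative controls on those 5 arrays. The red bars run from 20.4% for C57BL/6 replicate 2 to 100% for C57BL/6 replicate 1, and each is taller than its grey bar. Each chosen set held 19 to 21 of the original 21, for which this position was fixed by definition, so the bars are no test of the choice.

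All 21 remained lower in db/db by the mean under each of 6 other sets of values. These sets are other readings of the same 6 arrays on which the 21 were chosen, so a lower mean was favoured in advance. The median log2 difference was -0.56 with normexp background correction, -0.60 with quantile normalization and -0.50 with arrays centred on their medians. It was -0.55 with the percentile over detected probes, -0.55 with outlier spots kept and -0.56 in the authors' deposited table. The absence of overlap was less stable, since it held for 20 of the 21 with quantile normalization (4.75% of the 1832 then qualified), for 19 in the authors' deposited table (4.59%) and for 13 with median centring (0.983%). With normexp it held for all 21 (2.62%).

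**Figure D4:**
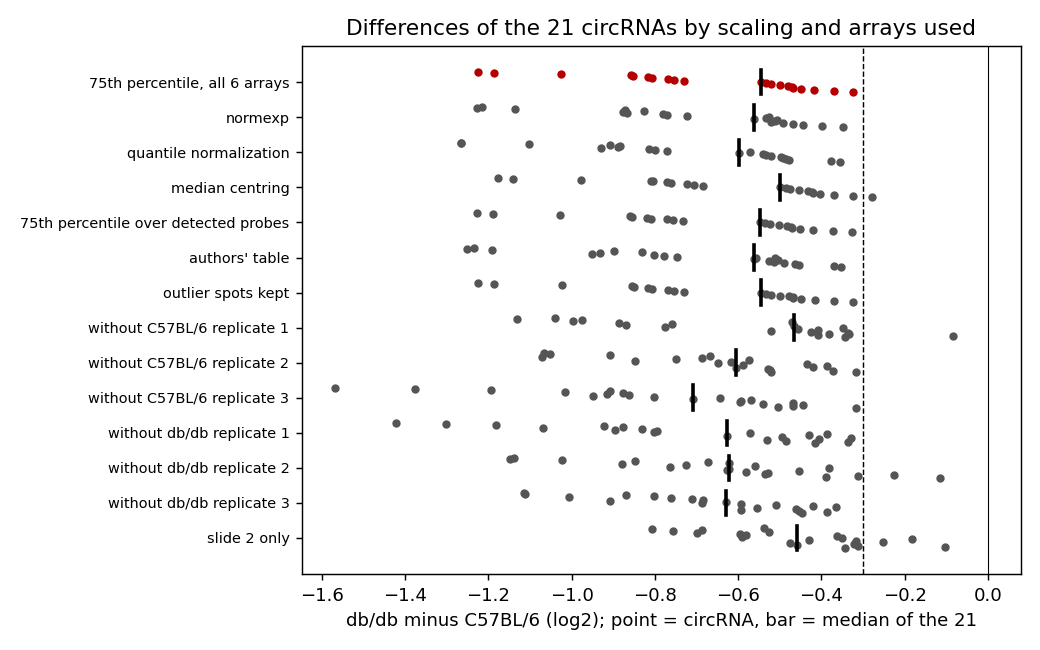
The db/db minus C57BL/6 difference (x axis, log2) of each of the 21 circRNAs (points) and their median (bars) under each scaling and with arrays left out (rows), with the dashed line at -0.3. Every point is below 0, the medians lie between -0.71 without C57BL/6 replicate 3 and -0.46 within slide 2, and the smallest drop shrinks to -0.08 without C57BL/6 replicate 1. In the rows with arrays left out and within slide 2, a difference below 0 was fixed by the choice.

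The spots of the 21 were spread over the array. The 21 spots fell 7, 6, 3 and 5 into the upper left, upper right, lower left and lower right part of the array, and each part held 24.5% to 25.9% of the 1832, and no pair of them was closer than 7.0 spots. The 31 to 42 circRNA spots around each of them had median differences of -0.06 to 0.09. Since each of the 21 was chosen for a drop of at least 0.3, this describes their surroundings and is no comparison with them.

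Control probes were read the same way beside the 21. Of the 14 probes named as circRNA controls, 13 were lower in db/db by the mean, with a median log2 difference of -0.27, beside 0.01 over all circRNAs. They were mostly dim, and only 2 lay above every negative control on all 6 arrays. The db/db arrays lay wholly below the C57BL/6 arrays for 2 of the 14, beside 7.21% of all circRNAs. For 1 of these the drop was at least 0.3, beside 5.44% of all circRNAs. The median level of these probes was -0.84, -0.68 and -1.34 in the controls and -1.35, -1.28 and -1.74 in db/db, in order of replicate (exact permutation p = 0.2, two-sided, where 0.1 is the smallest possible). As for many of the 21, C57BL/6 replicate 3 was the lowest control, here within the db/db range. The 50 mRNA probes had a median difference of -0.03, and the 15 negative-control probes one of 0.12. The part of what moved the circRNA control probes in the drop of the 21 was not tested.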

How the data were processed

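Each of the 6 arrays (3 per group, each taken as 1 mouse) was read with Agilent Feature Extraction 11.0.1.1 in 1 colour, on a design built on mm9, per the file headers. The deposited files give an intensity per spot, from which background and spatial trends had been removed array by array, with no normalization between arrays, per the file headers. The authors' deposited table holds log2 values, a scale judged from each column's ranks against the intensities of its own array (Spearman correlation across probes at least 0.9998); the sources used here do not state how it was scaled. The submitters' processing notes also name limma, without a role.

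For each probe the log2 intensity was averaged over its spots without those marked as outliers, and each array's 75th percentile over non-control probes was subtracted. Groups were compared over all circRNA probes with limma 3.58.1 in R 4.3.3, after a filter for signal well above background on 3 arrays, with Benjamini-Hochberg adjustment at 0.05; the script was tested on simulated data. The number of arrays limits the precision. The labels number the replicates of each group without naming animals, and each array was taken as a separate animal. The members and lists were chosen with earlier results of these data known. The IDs printed are those of the largest drop and of the brightest circRNA. Lists of host genes had no counterpart among the probe IDs and are not used here. Replicate numbers occur in both groups without a label that says what they mark.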

Additional observations from a re-analysis of the deposited data

How the results depend on the processing

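By limma, 0 circRNAs passed an adjusted p under 0.05 in every alternative run, with 1 array left out, with the replicate block (1587 at an unadjusted p under 0.05, against 1495 without it) and with slide as a block (184). The smallest adjusted p ran from 0.0618 without C57BL/6 replicate 3 to 1. The plain per-probe test on quantile-normalized values also gave 0 (1547 unadjusted). Same-numbered replicates deviated together at correlations of -0.263, -0.135 and 0.419, so the numbers were not taken as pairs. The number of circRNAs that the rule takes, 21, depended on its settings. It was 62 with quantile normalization, 104 within slide 2 alone, 69 with the bar set by the other 14 negative controls, 719 with the bar at the median of the negative controls and 13 with a minimum difference of 0.5. With normexp it was 31 and with median centring 14. With 1 array left out it ran from 21 to 113: 113 without C57BL/6 replicate 2, 60, 53 and 39 without db/db replicates 3, 2 and 1, and 32 without C57BL/6 replicate 3. Between 18 and 21 of the original 21 were among those taken within slide 2 or with 1 array left out. With 1 array left out the median difference of the 21 ran from -0.709 to -0.465, and their groups stayed apart by construction (21 of 21). Under median centring 13 of the 21 had no overlap. Within slide 2 the difference was -0.54 for ASCRP4009559 and -0.60 for ASCRP4000673. Normexp was run on the median intensity, a choice made after seeing the data because the files hold no mean intensity. The rule could not be run on the authors' table, which holds no negative controls. With 1 spot per circRNA and 3 arrays per group, gaps under about 0.05 are near the spread of repeated spots.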
